A study of Mus musculus with 12 samples.

Results

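The genes described here are 47 genes of DNA replication and S phase: the origin licensing factors and the MCM helicase, the factors that switch the helicase on, the replicative polymerases, the sliding clamp and its loader, single-strand binding proteins, the enzymes that supply deoxynucleotides, the proteins that copy chromatin and DNA methylation, and the E2F and cyclin E genes that control entry into S phase. They were chosen by symbol, with earlier results of these data known. All 47 were found among the 14219 genes of the deposited table. A filter on low read numbers kept 46 of them for testing and removed Orc1, a subunit of the origin recognition complex. In 8 of the 12 libraries Orc1 had no read, and its highest value was 3.09 CPM (reads scaled to a common total of all genes in the table).

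RNA had been sequenced from plasma cells of the bone marrow, the antibody-secreting cells of the B lineage. All mice carried BLTcre.mcl1fl/+ (a Cre with 1 floxed and 1 intact Mcl1 allele) on C57BL/6, and all had received tamoxifen, which switches on a human CD4 reporter. The groups were human CD4- cells at day 60 after tamoxifen (unmarked, 3 libraries), human CD4+ cells at day 60 (marked, 3 libraries), human CD4- cells at day 270 (3 libraries) and human CD4+ cells at day 270 (3 libraries). The marked pool holds cells in which the reporter was switched on by the treatment, while the unmarked pool can hold plasma cells formed later as well as cells that escaped marking. The promoter that drives the Cre, the loss of a copy of Mcl1 in marked cells, the sort gates and the age of the mice are things the sources used here do not give. Mice without tamoxifen were not analysed here.

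As background, a cell licenses its origins in G1 by loading MCM helicases with the help of the origin recognition complex, Cdc6 and Cdt1, and in S phase Cdc45 and the GINS complex turn the loaded helicase on. E2F transcription factors drive many of these genes at the passage from G1 to S, so that their transcripts are known to be abundant in cycling plasmablasts and low in resting cells. Mature plasma cells of the bone marrow are known as non-dividing cells, and bulk RNA from a sorted pool also contains any cycling cell in it. In such bulk samples fewer cells of a kind and less RNA per cell cannot be told apart.

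The stretches upstream of 6 genes are shown because these are the members whose 6 marked libraries of both days all lay below all 6 unmarked ones. They are RefSeq promoter windows on GRCm38.p6, on the strand of the gene, and capitals mark matches to an E2F octamer or to CCAAT on either strand. E2f2 is at chr4:136172024-136172273 (plus strand), Chaf1a at chr17:56040166-56040415 (plus), Cdc45 at chr16:18811988-18812222 (minus), Rrm2 at chr12:24708004-24708240 (plus), Mcm5 at chr8:75109259-75109508 (plus) and Mcm6 at chr1:128359706-128359955 (minus). The Cdc45 and Rrm2 windows are given without their last 15 and 13 bases, which lie past the GENCODE start of the gene.
E2f2: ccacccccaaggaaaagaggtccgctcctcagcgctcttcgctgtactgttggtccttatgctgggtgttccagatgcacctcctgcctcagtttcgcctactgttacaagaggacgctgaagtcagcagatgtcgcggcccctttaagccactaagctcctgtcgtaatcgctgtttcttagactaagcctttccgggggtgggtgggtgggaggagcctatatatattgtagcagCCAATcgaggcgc
Chaf1a: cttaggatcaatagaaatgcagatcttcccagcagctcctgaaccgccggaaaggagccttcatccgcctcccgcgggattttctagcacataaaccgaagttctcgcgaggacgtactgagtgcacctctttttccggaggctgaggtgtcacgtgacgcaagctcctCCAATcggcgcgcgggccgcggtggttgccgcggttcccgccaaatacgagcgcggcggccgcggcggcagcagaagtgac
Cdc45: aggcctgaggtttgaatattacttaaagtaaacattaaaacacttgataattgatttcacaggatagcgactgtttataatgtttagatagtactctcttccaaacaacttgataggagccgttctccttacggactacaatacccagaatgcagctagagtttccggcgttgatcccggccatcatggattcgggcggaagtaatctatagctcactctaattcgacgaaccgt
Rrm2: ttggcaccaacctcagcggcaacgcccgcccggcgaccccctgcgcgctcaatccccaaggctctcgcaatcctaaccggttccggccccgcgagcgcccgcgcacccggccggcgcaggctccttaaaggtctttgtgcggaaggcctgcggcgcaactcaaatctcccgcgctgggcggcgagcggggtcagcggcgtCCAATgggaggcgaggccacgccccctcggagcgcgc
Mcm5: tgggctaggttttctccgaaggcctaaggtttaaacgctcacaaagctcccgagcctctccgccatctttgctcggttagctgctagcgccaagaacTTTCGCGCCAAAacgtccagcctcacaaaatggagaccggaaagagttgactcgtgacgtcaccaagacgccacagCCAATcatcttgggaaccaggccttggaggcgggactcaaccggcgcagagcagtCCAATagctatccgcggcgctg
Mcm6: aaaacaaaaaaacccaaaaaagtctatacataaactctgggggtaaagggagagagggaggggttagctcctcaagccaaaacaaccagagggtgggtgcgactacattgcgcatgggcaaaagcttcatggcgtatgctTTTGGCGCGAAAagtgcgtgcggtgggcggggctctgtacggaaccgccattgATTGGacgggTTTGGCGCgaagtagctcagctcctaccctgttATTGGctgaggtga
The E2F octamers searched were TTTCCCGC, TTTCGCGC, TTTGCCGC and TTTGGCGC. Mcm5 had 2 overlapping octamer matches and 2 CCAAT boxes, and Mcm6 had 3 octamer matches (2 of them overlapping) and 2 CCAAT boxes. E2f2, Chaf1a and Rrm2 had 1 CCAAT box each and no octamer in this stretch, and the CCAAT box of Cdc45 lay in the bases left out above.

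Windows of the 250 bases before the start were found for 40 of the 47 members (49 windows, since some genes have several starts). Ccne2, Gins1, Gins2, Mcm4, Pole, Prim2 and Rfc2 had none in the RefSeq table used. An E2F octamer on either strand stood in 11 of these 49 windows (22.4%), against 1.86% of all 32851 windows. The genes with one were Brca2, Cdc6, Dnmt1, Gins3, Mcm5, Mcm6, Mcm7, Orc1, Pola1, Rfc3 and Uhrf1. CCAAT on either strand, counted apart from the octamers with overlaps allowed, stood in 29 windows (59.2%) against 33.8% of all. TTTGAA, the letters of the CHR element known from late cell cycle promoters, stood in 7 windows (14.3%) against 16.0% of all. A match of letters is a description of the sequence and not a binding site.

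The libraries held 7449468 to 15943547 reads on the genes of the table, so that 1 read is worth between 0.0627 and 0.134 CPM. Fewest genes were detected in marked libraries 2 and 3 of day 270 (11022 and 11301), which also had the fewest members with a read, 38 and 36 of 47. Features resembling ribosomal RNA took 30.0% of the reads in library 2 of that group, and marked library 2 of day 60 had 12%, against at most 3.18% in the other libraries. All 9 plasma cell markers checked (Sdc1, Prdm1, Xbp1, Irf4, Tnfrsf17, Jchain, Mzb1, Slamf7 and Cd28) had reads in every group. Of 10 erythroid markers 9 were in the table (Klf1 was not), and their summed level was 39.5 to 69.0 CPM in unmarked and 108 to 350 CPM in marked cells at day 60, and 30.2 to 169 CPM and 185 to 802 CPM at day 270. Epor was at 0 in marked cells of day 270. The summed 10 monocyte and macrophage markers were 728 to 1787 CPM and 1102 to 1639 CPM at day 60, and 1484 to 2554 CPM and 1789 to 4654 CPM at day 270, with all of them read in every group. Ly6c2 made up most of this sum, with group means of 1101 and 1300 CPM at day 60 and 1928 and 2973 CPM at day 270, and each of the other 9 had group means of at most 60.3 CPM. The 6 of 8 markers of pro-B and pre-B cells in the table summed to 7.64 to 24.9 CPM and 7.12 to 22.7 CPM at day 60, and to 33.9 to 52.1 CPM and 22.1 to 55.7 CPM at day 270. The 9 markers of neutrophils and their progenitors ranged from 1.38 to 777 CPM over the 12 libraries, the 8 of mature B cells from 244 to 421 CPM, and the 4 of 9 T and NK cell markers in the table from 1.97 to 9.13 CPM. The part of these other cells in the results below was not tested.

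Replication transcripts were lower in marked than in unmarked plasma cells at both days, and few single genes passed the test. Summed over the 47 members, the level was 843 to 958 CPM in unmarked and 590 to 692 CPM in marked libraries at day 60, and 930 to 1005 CPM and 612 to 806 CPM at day 270. The marked and unmarked libraries did not overlap at either day. Mki67 and Top2a, proliferation genes outside the set, summed to 56.2 to 95.4 CPM in unmarked and 9.87 to 26.2 CPM in marked libraries at day 60, and to 48.9 to 93.6 CPM and 18.1 to 43.1 CPM at day 270. Mki67 alone overlapped at day 270, with 23.4 to 68.9 CPM in unmarked and 16.2 to 28.5 CPM in marked libraries. In the limma test described below, over both days, Top2a passed (log2 fold change -2.99, adjusted p = 0.000455). Mki67 did not (-0.93, adjusted p = 0.164).

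Differences between groups were tested with limma over all genes on log2(CPM + 0.5), and a gene counts as called where the p adjusted by Benjamini-Hochberg is under 0.05. Log2 fold changes are on that scale, marked minus unmarked unless stated, and are given ± the standard error (SE). The scale understates the change of genes with few reads. Means are ± SD over the 3 libraries of a group. At day 60 1 of the 46 tested members fell, Rrm2 (2.17%, against 0.15% of all 12704 genes called lower), and at day 270 1 fell, Cdc45 (2.17%, against 0.433%). With both days averaged 3 fell, Cdc45, Rrm2 and E2f2 (6.52%, against 1.5%). No member was called higher in any of these comparisons, where 0.0394%, 0.0472% and 0.338% of all genes were, and none at an unadjusted p under 0.05 (background 1.4%, 2.09% and 2.68%). edgeR, DESeq2 and limma-voom called none higher either.

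Most members had negative fold changes without passing the test one by one. At day 60 42 of 46 were negative (91.3%, against 63.9% of all genes) with a median of -0.54, where the median of all genes was -0.13. At day 270 39 of 46 were negative (84.8%, against 69.2%) with a median of -0.51, where that of all genes was -0.22. Over both days 43 of 46 were negative (93.5%, against 70.4%). At an unadjusted p under 0.05, 11 members were lower at day 60 (background 5.05%), 13 at day 270 (background 11.9%) and 20 over both days (background 14.2%). Scaling by TMM in place of total reads moves the median of all genes up by 0.12 at day 60 and 0.11 at day 270. It was then -0.01 and -0.11, where that of the members was -0.44 and -0.38. Of the members 39 and 36 stayed negative, and the share of all genes was not counted under this scaling. The signs of Pold2, Rfc3 and Rpa2 turned at day 60, and those of Pold1, Rfc2 and Rpa3 at day 270.

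**Figure D1:**
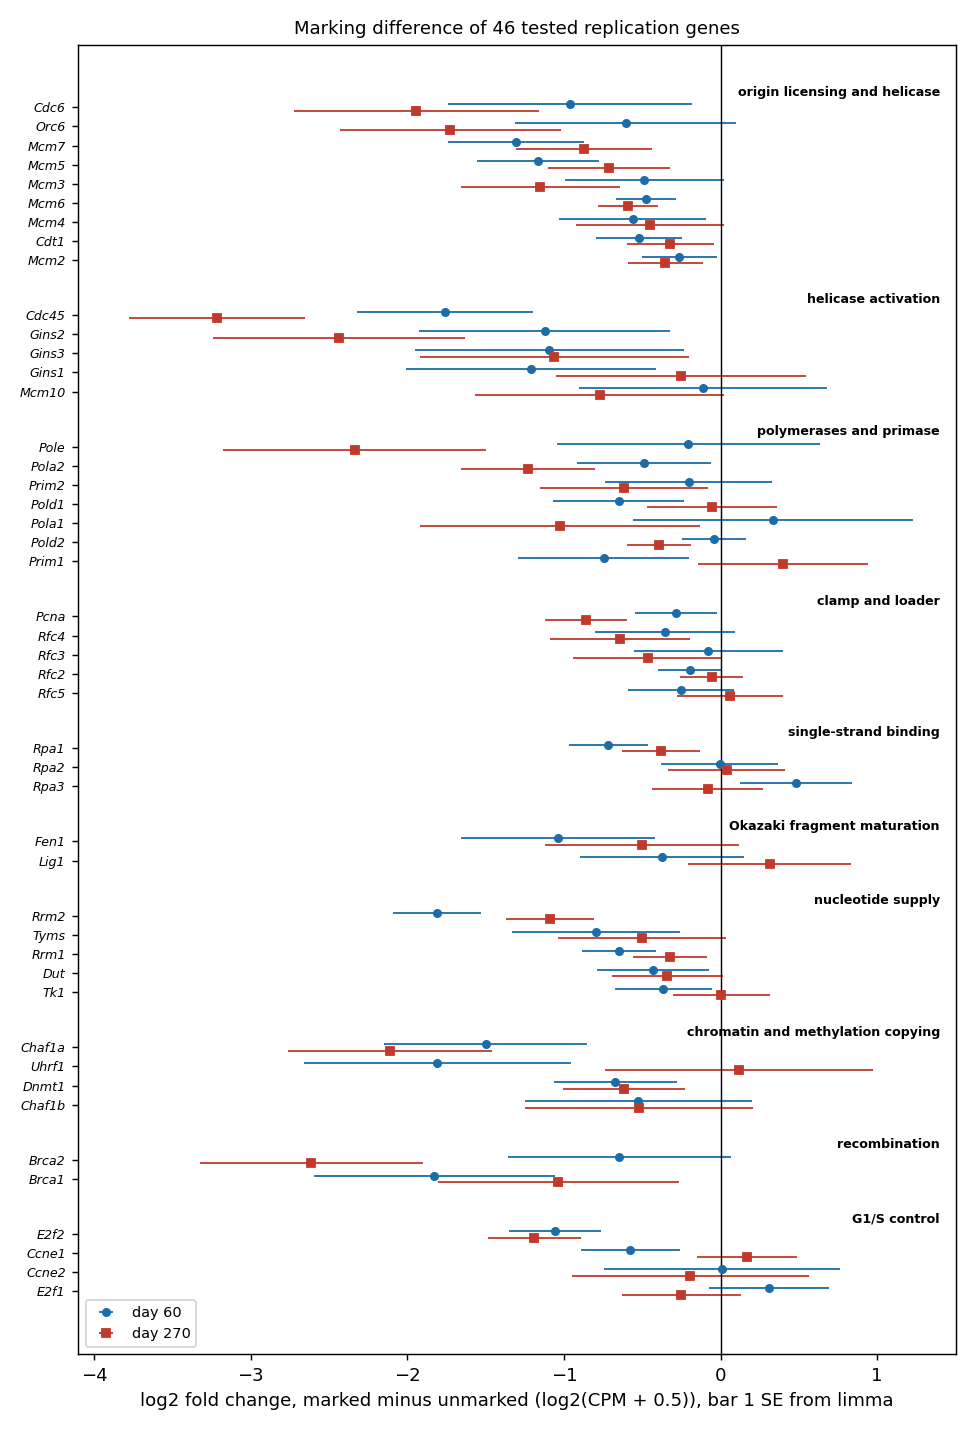
Log2 fold change of marked against unmarked cells (horizontal axis, log2(CPM + 0.5)) for the 46 tested members, grouped by role, at day 60 (blue circles) and day 270 (red squares), with bars of 1 SE from limma. Most points lie left of 0, 42 at day 60 and 39 at day 270, and Cdc45 at day 270 lies farthest left at -3.21.

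Complete separation of the libraries is a second description of the same values. At day 60 12 members had every marked library below every unmarked one (26.1%, against 11.3% of all genes): Brca1, Cdc45, Chaf1a, E2f2, Mcm2, Mcm5, Mcm6, Mcm7, Pold1, Rpa1, Rrm1 and Rrm2. Rpa3 was the only member with every marked library above, where 4.46% of all genes were. At day 270 12 members were separated downwards (26.1%, against 12%) and none upwards (against 3.28%). They were Brca2, Cdc45, Chaf1a, E2f2, Gins2, Mcm5, Mcm6, Orc6, Pola2, Pold2, Pole and Rrm2. Cdc45, Chaf1a, E2f2, Mcm5, Mcm6 and Rrm2 were separated at both days. With the days pooled, all 6 marked libraries lay below all 6 unmarked ones for these same members. By this stricter pooled rule they were 6 of 46 (13.0%), against 1.85% of all genes.

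Rrm2, the small subunit of ribonucleotide reductase made in S phase (12:24708241-24714146, plus strand, GRCm38), had the lowest adjusted p of the set at day 60 and over both days. It stood at 40.1, 37.3 and 37.6 CPM in unmarked and 8.82, 12.7 and 10.5 CPM in marked libraries 1 to 3 at day 60. At day 270 the values were 44.9, 29.3 and 33.0 CPM in unmarked and 14.9, 17 and 16.9 CPM in marked libraries. All 6 marked libraries were below all 6 unmarked ones, and the means differed 3.58 times at day 60 (38.3 ± 1.53 against 10.7 ± 1.96 CPM) and 2.20 times at day 270 (35.8 ± 8.15 against 16.3 ± 1.18 CPM). The log2 fold change was -1.81 ± 0.28 at day 60 (adjusted p = 0.00748), -1.09 ± 0.28 at day 270 (adjusted p = 0.0945, not called by limma) and -1.45 ± 0.20 over both days (adjusted p = 0.000708). In the authors' deposited table for day 60, Rrm2 has a log2 fold change of -1.76 and an FDR of 0.0163, and it is the only one of the 47 members under 0.05. The next lowest FDR in the authors' deposited table is 0.385, for Mcm5. The day 60 call was lost without any 1 of the unmarked day 60 libraries (adjusted p = 0.0570, 0.0715 and 0.0643 without libraries 1, 2 and 3), at log2 fold changes from -1.78 to -1.83. At day 270 Rrm2 was called by DESeq2 (adjusted p = 0.0425) and by limma with quality weights (adjusted p = 0.0238). Without replicate 1 of every group the adjusted p was 0.384 at day 60 and 0.0930 over both days.

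The other enzymes of nucleotide supply had smaller differences. Rrm1, the large subunit of the same enzyme, was lower in the marked library of all 6 specimens, with log2 fold changes of -0.65 ± 0.24 at day 60 and -0.33 ± 0.24 at day 270 (adjusted p = 0.540 and 0.552). Tyms, which makes thymidylate, had -0.80 ± 0.54 and -0.50 ± 0.54. Dut, which removes dUTP, had -0.43 ± 0.36 and -0.34 ± 0.36. Tk1, the salvage kinase for thymidine, had -0.37 ± 0.31 and 0.00 ± 0.31. Of these 5 genes 1 passed at day 60 and over both days, Rrm2. The summed level of the 5 was 144 ± 8.33 CPM in unmarked and 84.9 ± 7.88 CPM in marked cells at day 60, and 150 ± 19.3 and 114 ± 14.8 CPM at day 270.

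Cdc45, which completes the active helicase together with MCM and GINS (16:18780447-18811987, minus strand), had the largest fall of the called members. In unmarked cells it stood at 8.78, 6.95 and 9.43 CPM at day 60 and at 4.60, 4.04 and 7.60 CPM at day 270. In marked cells it stood at 2.67, 1.55 and 2.24 CPM at day 60 and at 0.439, 0 and 0 CPM at day 270, where the first library had 7 reads. The marked libraries were below all unmarked ones, and at day 270 a pair of them had no read. The log2 fold change was -1.76 ± 0.56 at day 60 (adjusted p = 0.431), -3.21 ± 0.56 at day 270 (adjusted p = 0.0159) and -2.49 ± 0.40 over both days (adjusted p = 0.00263). Its size depends on the pseudocount, with -4.92 at a pseudocount of 0.1 and -1.76 at 2 for day 270, both called. The day 270 call was lost without unmarked library 1, 2 or 3 of that day (adjusted p = 0.105, 0.0593 and 0.116), without replicate 1 of every group (0.118), with edgeR (0.0581), with limma-voom (0.111) and in a fit of the day 270 libraries alone (0.297). Without marked libraries 2 and 3 of day 270 it was -2.61 with an adjusted p of 0.172, where the 1 library left is assumed to vary like the other groups.

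Among the other helicase activators no gene passed. Gins2, a GINS subunit, stood at 5.71, 3.78 and 0 CPM in unmarked and 0.890, 0.476 and 0.447 CPM in marked libraries at day 60. At day 270 it stood at 4.05, 2.12 and 2.83 CPM in unmarked and 0.502, 0 and 0 CPM in marked libraries. The groups overlapped at day 60 through 1 unmarked library without reads and were separate at day 270, with log2 fold changes of -1.12 ± 0.80 and -2.44 ± 0.80 (adjusted p = 0.921 and 0.202). Gins1 and Gins3, also of GINS, had -1.21 ± 0.80 and -1.09 ± 0.86 at day 60 and -0.25 ± 0.80 and -1.06 ± 0.86 at day 270. Mcm10, a further activator, averaged 0.405 CPM or less in 2 of the 4 groups and had no read in 5 libraries. All 5 activators were negative at both days. Their summed level was 18.9 ± 1.76 CPM in unmarked and 6.35 ± 3.26 CPM in marked cells at day 60, and 14.2 ± 2.35 and 4.29 ± 2.11 CPM at day 270.

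All 9 tested genes of origin licensing and the helicase were negative at both days, and none passed the test. Mcm5, a helicase subunit, stood at 18.3, 15.5 and 18.2 CPM in unmarked and 8.17, 12.7 and 3.84 CPM in marked libraries at day 60. At day 270 it stood at 21.0, 19.6 and 24.7 CPM in unmarked and 12.8, 13.2 and 13.1 CPM in marked libraries. All 6 marked libraries were below all 6 unmarked ones, with a log2 fold change of -0.94 ± 0.28 over both days (adjusted p = 0.0983). Mcm6 was separated in the same way, from 78.1 ± 7.90 to 56.3 ± 9.84 CPM at day 60 and from 90.2 ± 3.59 to 60.1 ± 7.53 CPM at day 270, and just missed the threshold over both days (-0.53 ± 0.14, adjusted p = 0.0512). It passed with DESeq2 (-0.39, adjusted p = 0.0367), which also called Mcm7 (-0.92, adjusted p = 0.0378). In limma Mcm7 had -1.09 ± 0.31 over both days (adjusted p = 0.0827).

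Mcm2, a further helicase subunit, had log2 fold changes of -0.26 ± 0.24 at day 60 and -0.35 ± 0.24 at day 270 (adjusted p = 0.936 and 0.519). It stood at 33.3, 36.7 and 38.0 CPM in unmarked and 26.1, 33.0 and 30.9 CPM in marked libraries at day 60, and at 41.9, 47.2 and 45.4 CPM against 31.3, 28.9 and 47.3 CPM at day 270. The groups were separate at day 60 by a narrow margin and overlapped at day 270 through marked library 3. Cdc6, which loads the helicase, was lower in the marked library of all 6 specimens. It stood at 3.25, 3.18 and 1.17 CPM in unmarked and 0.162, 2.5 and 1.07 CPM in marked libraries at day 60, and at 3.77, 1.16 and 4.39 CPM against 1.94, 0 and 0 CPM at day 270. Its log2 fold change over both days was -1.45 ± 0.55 (adjusted p = 0.200). Mcm3 (-0.49 and -1.15), Mcm4 (-0.56 and -0.45), Cdt1 (-0.52 and -0.32) and Orc6 (-0.61 and -1.72) were negative at day 60 and day 270 with no adjusted p under 0.248 over both days.

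Per kb of exon, Mcm6 was the most abundant helicase subunit. Its mean over the 12 libraries was 15.3 CPM per kb, and that of Mcm2, Mcm3, Mcm4, Mcm5 and Mcm7 was 5.27, 3.16, 3.52, 3.78 and 3.20 CPM per kb. These subunits are known to sit in a ring in equal number, and their transcripts were not read in equal amounts. The lengths are the union of the annotated exons, so a gene whose main transcript is shorter than that union is understated. Over all members, Pold2 (28.7), Pcna (19.5), Mcm6, Rpa3 (11.8) and Rfc2 (11.5 CPM per kb) led.

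**Figure D2:**
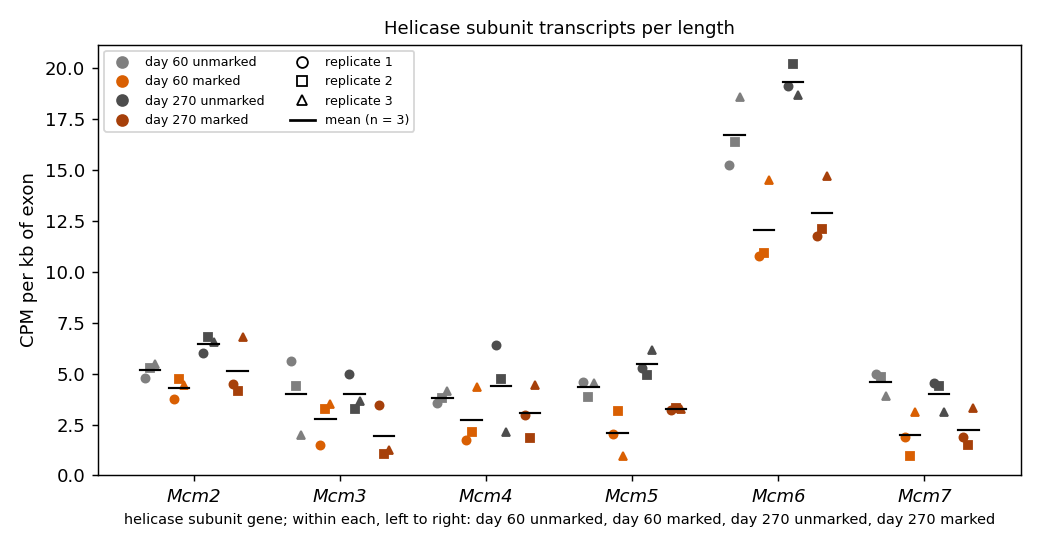
CPM per kb of exon (vertical axis) of the 6 MCM helicase subunits in the 12 libraries, with colours for the 4 groups, symbols for replicates and bars for group means (n = 3). Mcm6 averages 15.3 CPM per kb over all libraries and the other subunits 3.16 to 5.27, and for Mcm5 and Mcm6 all marked libraries lie below the unmarked ones.

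E2f2, an E2F transcription factor (4:136172394-136196057, plus strand), fell over both days. It stood at 53.4, 47.9 and 38.3 CPM in unmarked and 22.0, 20.5 and 23.4 CPM in marked libraries at day 60. At day 270 it stood at 53.9, 40.2 and 76.7 CPM in unmarked and 36.2, 21.3 and 17.5 CPM in marked libraries. The marked and unmarked libraries did not overlap, and the means differed 2.12 and 2.28 times at the 2 days. The log2 fold change was -1.06 ± 0.30 at day 60 (adjusted p = 0.265), -1.19 ± 0.30 at day 270 (adjusted p = 0.0823) and -1.12 ± 0.21 over both days (adjusted p = 0.00753). The call over both days was lost without replicate 1 of every group (adjusted p = 0.107) and without marked libraries 2 and 3 of day 270 (-0.83, adjusted p = 0.0631).

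The other 3 G1/S genes were not called. E2f1, a related E2F factor, stood at 14.1, 19.5 and 21.8 CPM in unmarked and 12.1, 27.7 and 34.3 CPM in marked libraries at day 60, and at 22.5, 27.3 and 14.5 CPM against 21.5, 16.8 and 14.5 CPM at day 270. The groups overlapped at both days, and the log2 fold change over both days was 0.03 ± 0.27. Ccne1, a cyclin E gene, stood at 27.1, 16.3 and 18.0 CPM in unmarked and 11.6, 11.3 and 17.7 CPM in marked libraries at day 60, and at 23.3, 17.6 and 23.0 CPM against 21.3, 28.5 and 22.3 CPM at day 270. Its groups overlapped at both days, with -0.58 ± 0.32 at day 60 and 0.17 ± 0.32 at day 270. Ccne2, the other cyclin E gene, stood at 6.06, 1.80 and 0.688 CPM in unmarked and 3.64, 2.02 and 1.25 CPM in marked libraries at day 60. Its day 270 values were 4.51, 2.98 and 1.64 CPM in unmarked and 0.690, 2.42 and 6.71 CPM in marked libraries. Libraries of 1 group differed several-fold, and its log2 fold change over both days was -0.09 ± 0.53. Whether E2f2 differs from these genes in its response was not tested.

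**Figure D3:**
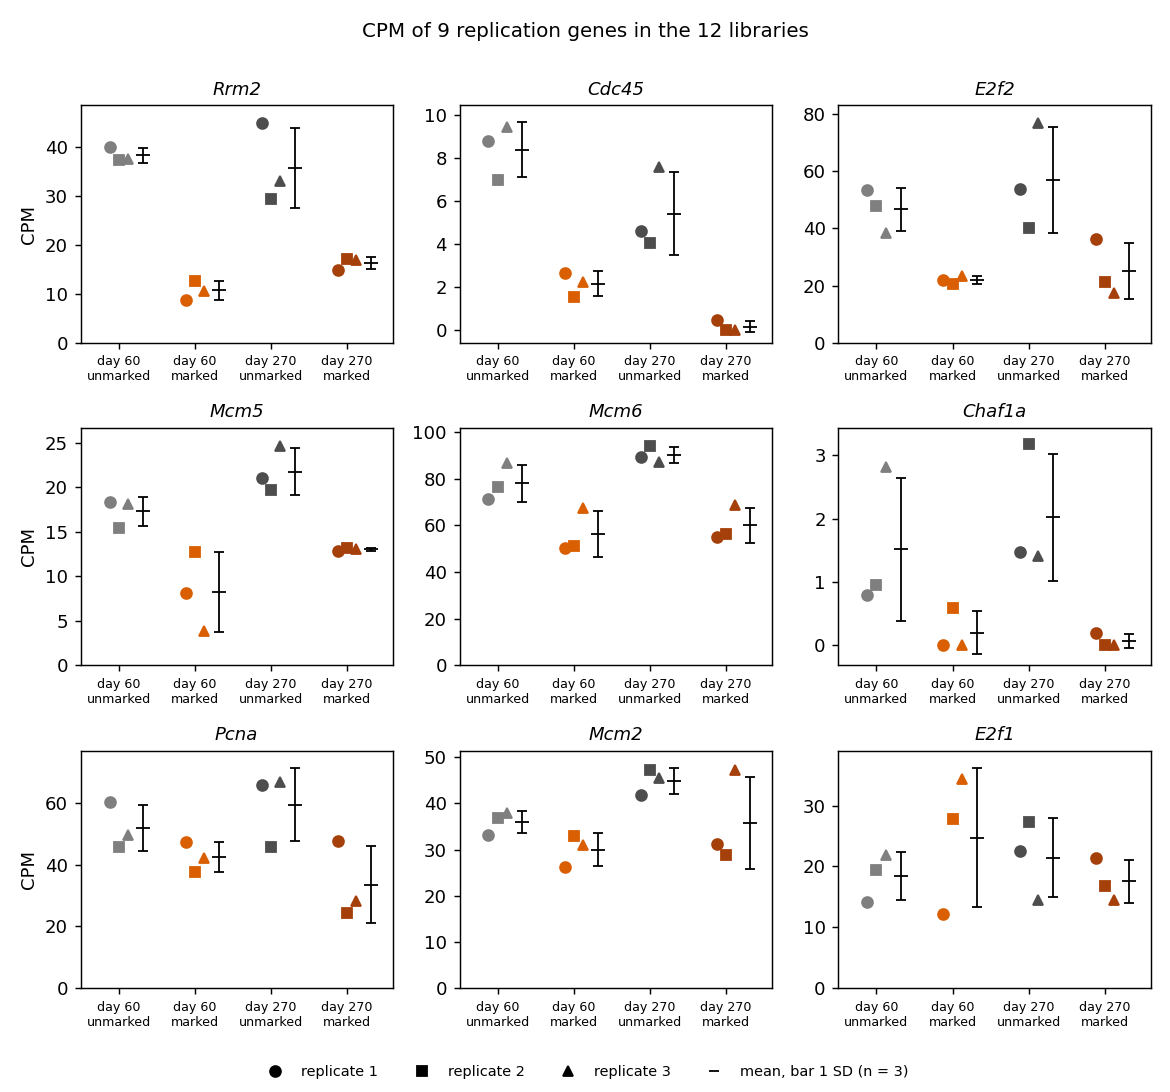
CPM (vertical axes, each from its own scale) of 9 members in the 12 libraries by group, with symbols for replicates 1 to 3 and black bars for the mean ± 1 SD (n = 3). In Rrm2, Cdc45, E2f2, Mcm5, Mcm6 and Chaf1a every marked library lies below the unmarked libraries of its day, while Pcna, Mcm2 and E2f1 overlap at 1 day or both.

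Of the genes that copy chromatin and DNA methylation, none passed. Chaf1a, the large subunit of the histone chaperone CAF-1 (17:56040439-56072289, plus strand), stood at 0.790, 0.944 and 2.82 CPM in unmarked and 0, 0.595 and 0 CPM in marked libraries at day 60. At day 270 it stood at 1.47, 3.18 and 1.42 CPM in unmarked and 0.188, 0 and 0 CPM in marked libraries. The groups did not overlap at either day, and 4 of 6 marked libraries had no read. At day 60 the closest values were 0.595 CPM (5 reads) in marked and 0.790 CPM (9 reads) in unmarked libraries. The log2 fold change over both days was -1.81 ± 0.46 (adjusted p = 0.0515). Dnmt1, the maintenance DNA methyltransferase, stood at 26.4, 21.6 and 29.3 CPM in unmarked and 8.09, 15.6 and 31.2 CPM in marked libraries at day 60, and at 26.3, 36.9 and 28.7 CPM against 17.1, 16.0 and 27.6 CPM at day 270. The groups overlapped at both days, with -0.64 ± 0.28 over both (adjusted p = 0.250). Uhrf1, which guides Dnmt1 to copied DNA, stood at 2.28, 4.29 and 3.92 CPM in unmarked and 0, 5.00 and 0 CPM in marked libraries at day 60. At day 270 it stood at 5.89, 3.37 and 1.86 CPM in unmarked and 1.82, 2.42 and 10.5 CPM in marked libraries. Its 6 marked libraries ran from no read to the highest value of all 12, and its fold change over both days was -0.85 ± 0.60. Chaf1b, the partner of Chaf1a, had -0.52 ± 0.73 at each day.

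None of the 7 polymerase and primase genes passed. Pola1, the catalytic subunit of polymerase alpha, stood at 2.19, 1.63 and 2.89 CPM in unmarked and 1.05, 5.95 and 3.40 CPM in marked libraries at day 60, and at 3.22, 2.21 and 5.66 CPM against 0.753, 0 and 11.4 CPM at day 270. Prim1, the catalytic subunit of primase, stood at 5.88, 10.9 and 5.78 CPM in unmarked and 5.58, 2.02 and 5.81 CPM in marked libraries at day 60, and at 8.65, 3.46 and 6.48 CPM against 5.39, 7.25 and 12.2 CPM at day 270. In both genes the groups overlapped at both days. Pola2, the second subunit of polymerase alpha, was lower in the marked library of all 6 specimens (-0.86 ± 0.30 over both days, adjusted p = 0.171). Pole, the catalytic subunit of polymerase epsilon, had no read in the 3 marked libraries of day 270 and 75 reads in the unmarked ones. With the reads of each group pooled and 3 reads taken as the floor, this is at least 23.5-fold lower. That figure leaves out the spread between libraries. Pole was also without reads in 1 unmarked and 2 marked libraries of day 60, and it was not called at day 270 (adjusted p = 0.236). Pold1 and Pold2 of polymerase delta had -0.35 ± 0.29 and -0.22 ± 0.14 over both days, and Prim2 of primase had -0.41 ± 0.38.

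Pcna, the sliding clamp, stood at 60.2, 45.6 and 49.6 CPM in unmarked and 47.4, 37.7 and 42.1 CPM in marked libraries at day 60, and at 65.6, 45.7 and 66.7 CPM against 47.8, 24.3 and 28.4 CPM at day 270. It was lower in the marked library of all 6 specimens, though the groups overlapped at both days. The log2 fold change was -0.28 ± 0.26 at day 60 and -0.86 ± 0.26 at day 270 (adjusted p = 0.936 and 0.176). Without marked library 1 of day 270 Pcna was called at that day (-1.14). The clamp loader genes Rfc2, Rfc3, Rfc4 and Rfc5 ran from -0.35 to -0.08 at day 60 and from -0.64 to 0.06 at day 270.

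The 3 single-strand binding genes, Rpa1, Rpa2 and Rpa3, encode the proteins that coat unwound DNA. Differences between them were not tested. Rpa1 was separated downwards at day 60 (49.5 ± 5.19 against 29.8 ± 0.984 CPM, log2 fold change -0.72 ± 0.25, adjusted p = 0.513). Rpa2 stood at 39.4, 17.6 and 14.9 CPM in unmarked and 28.6, 20.6 and 17.3 CPM in marked libraries at day 60, and at 29.8, 25.2 and 21.3 CPM against 23.2, 18.5 and 40.5 CPM at day 270. Rpa3 stood at 11.8, 9.70 and 12.2 CPM in unmarked and 14.6, 14.4 and 18.8 CPM in marked libraries at day 60, and at 13.1, 11 and 16.2 CPM against 9.41, 17 and 12.1 CPM at day 270. Rpa2 overlapped at both days, and Rpa3 was above at day 60 (0.48 ± 0.36, adjusted p = 0.924) and overlapped at day 270.

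Of the repair and maturation genes, limma called none. Brca1, a recombination factor, stood at 1.76, 4.38 and 1.93 CPM in unmarked and 0.890, 0.357 and 0 CPM in marked libraries at day 60, and at 2.03, 2.41 and 4.99 CPM against 1.5, 4.16 and 0 CPM at day 270. Brca2, which loads the recombinase, stood at 2.98, 4.04 and 2.68 CPM in unmarked and 0.890, 7.26 and 0.715 CPM in marked libraries at day 60, and at 2.67, 5.2 and 2.68 CPM against 0.502, 0 and 0 CPM at day 270. Brca1 was separate at day 60 alone and Brca2 at day 270 alone, where its log2 fold change was -2.61 ± 0.71 (adjusted p = 0.117, and 0.0425 with DESeq2). Lig1, the ligase that seals Okazaki fragments, stood at 11, 11.5 and 5.71 CPM in unmarked and 2.51, 12.9 and 9.30 CPM in marked libraries at day 60, and at 8.47, 13.4 and 11.4 CPM against 17.8, 9.26 and 15.4 CPM at day 270. Its groups overlapped at both days, with -0.03 ± 0.37 over both. Fen1, the flap nuclease that trims the fragments, was lower in the marked library of all 6 specimens (-0.77 ± 0.44, adjusted p = 0.388).

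Within a specimen, whose marked and unmarked libraries share a number in the labels, 11 members were lower in the marked library in all 6 specimens (23.9% of the 46, against 7.64% of all genes): Cdc45, Cdc6, Chaf1a, E2f2, Fen1, Mcm5, Mcm6, Pcna, Pola2, Rrm1 and Rrm2. The median log2 ratio of the members was -0.85, -0.35 and -0.28 in specimens 1 to 3 of day 60, where that of all genes was -0.28, -0.14 and 0.03. For day 270 it was -0.54, -0.73 and -0.33, where that of all genes was -0.10, -0.59 and 0.07. The members' median was below that of all genes in each of the 6 specimens, by the smallest margin in specimen 2 of day 270. In specimen 1 of each day 41 of 46 members were lower, where 67.2% and 57.9% of all genes were. In the third of each day 29 and 28 were lower, where 45.6% and 43.6% of all genes were.

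**Figure D4:**
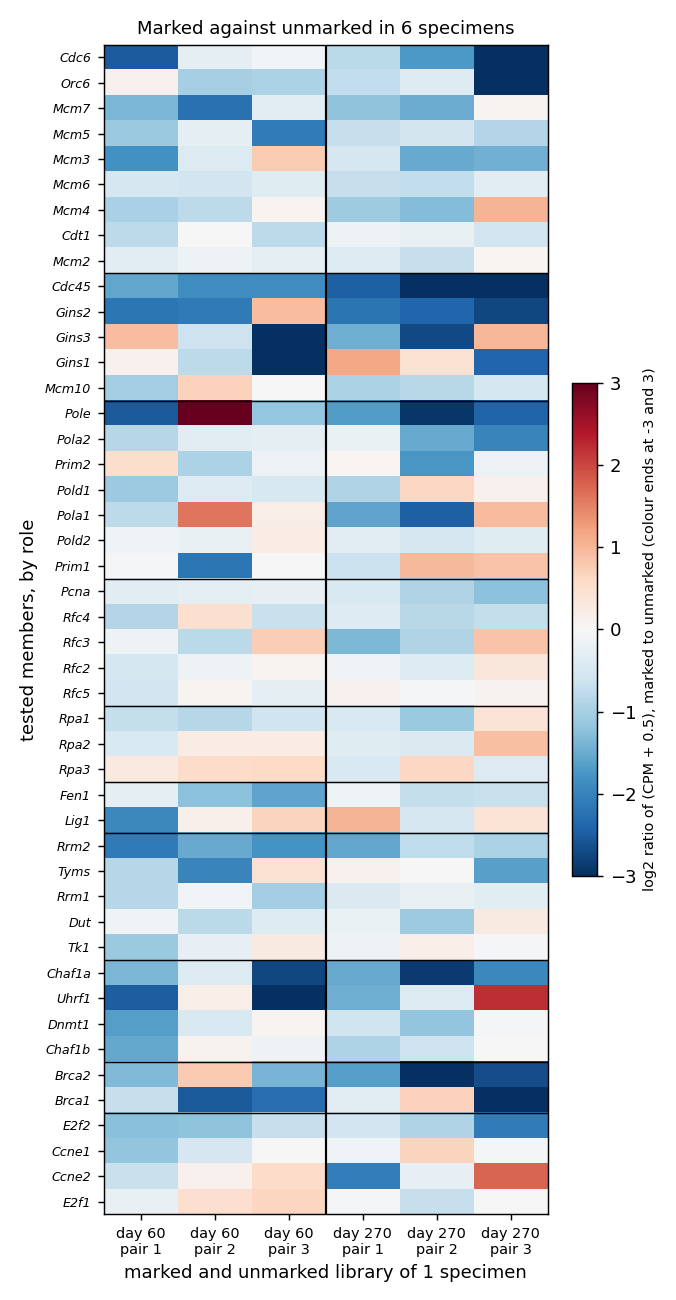
Log2 ratio of (CPM + 0.5) in the marked to the unmarked library of each specimen (columns, 3 of day 60 and 3 of day 270) for the 46 tested members (rows, by role), with the colour scale ending at -3 and 3. Blue, a lower marked library, fills the rows of Cdc45, Rrm2, E2f2, Mcm5, Mcm6 and Chaf1a in all 6 columns, and the columns of specimen 1 of each day have 41 of 46 rows below 0.

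The marking difference was not shown to change with time. In the test of its difference between day 270 and day 60, limma called 0 members in either direction, and 0% of all genes. At an unadjusted p under 0.05 there were 0 members (background 2.16% lower and 0.889% higher). With edgeR, DESeq2 and limma-voom 0 members were called as well. Of the 46 members 22 were negative (47.8%, against 58.2%). The difference of the log2 fold changes was -1.46 ± 0.79 for Cdc45, 0.72 ± 0.40 for Rrm2 and -0.13 ± 0.42 for E2f2. It ran from -2.13 ± 1.19 for Pole to 1.92 ± 1.21 for Uhrf1, and its median was 0.02, where that of all genes was -0.09.

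In neither population did limma call a member between day 60 and day 270. In marked cells 20 of 46 members were negative (43.5%, against 48%). limma called 0 (background 0.00787% lower and 0.0236% higher). At an unadjusted p under 0.05, 2 of 46 members were lower at day 270 (background 4.2%), Cdc45 (-2.08 ± 0.56) and Brca2 (-1.90 ± 0.71). There were 4 of 46 higher (background 5.44%), Ccne1 (0.82 ± 0.32), Uhrf1 (1.92 ± 0.85), Rrm1 (0.54 ± 0.24) and Rrm2 (0.60 ± 0.28). edgeR and limma-voom called 0, and DESeq2 called Cdc45 (-3.69, adjusted p = 0.0193). The marked libraries of day 270 lay above all of day 60 for 5 of 46 members, Ccne1, Mcm5, Rpa1, Rrm1 and Rrm2 (background 6.46%). They lay below for Brca2 and Cdc45, 4.35% of the 46, close to the 4.04% of all genes. In unmarked cells limma called 0 members, 0 at an unadjusted p under 0.05 (background 0.323% lower and 2.65% higher), and the other 3 tools called 0. There 13 of 46 members had a negative change (28.3%, against 33.6%) and 33 a positive one, with a median of 0.19, where that of all genes was 0.12. With TMM scaling 26 were positive with a median of 0.08, where that of all genes was 0.0063. Mcm2, Mcm5 and Mcm6 were higher in every unmarked library of day 270 than of day 60. These 3 of 46 members are a smaller share than the 10.4% of all genes. Chaf1b was lower in every one, 2.17% of the 46, close to the 2.39% of all genes.

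The marked cells of day 270 were also compared with the unmarked cells of day 60, a contrast the authors tabulated, which shares its libraries with those above. Of the 46 members 37 were negative (80.4%, against 59.5%), 12 of them at an unadjusted p under 0.05 (background 9.1%). In 11 members (23.9%, against 9.44%) all marked libraries of day 270 lay below all unmarked ones of day 60, and in 0 above (against 6.56%). Of the 46 members 2 fell, 4.35% against 0.748% of all genes, and 0 rose, where 0.795% of all genes did. Cdc45 changed by -3.84 ± 0.56 (adjusted p = 0.00157) and Rrm2 by -1.21 ± 0.28 (adjusted p = 0.0342). The authors' deposited table for this contrast lists 265 genes and holds the same 2 members, with an FDR of 0.00513 for Cdc45 and 0.0152 for Rrm2. Cdc45 was called in all 24 alternatives that tested it, with log2 fold changes from -6.00 to -2.27. The filter on a mean of at least 5 CPM left Cdc45 out. The Rrm2 call was lost without unmarked library 1, 2 or 3 of day 60 (adjusted p = 0.133, 0.136 and 0.151), without unmarked library 1, 2 or 3 of day 270 (0.0591, 0.0552 and 0.0527), without marked libraries 2 and 3 of day 270 (0.147), without replicate 1 of every group (0.205) and in a fit of the compared libraries alone (0.132).

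Members with few reads had larger standard errors. The mean over the 12 libraries was at least 20 CPM for 15 members, 5 to 20 CPM for 16 and under 5 CPM for 16, and 15 members had no read in at least 1 library. The median SE of the day 60 difference was 0.28 for the tested members of the upper class, 0.46 for the middle and 0.78 for the 15 tested members of the lower class. The median log2 fold change of the day 60 difference was -0.43, -0.52 and -1.03 in these classes. Of the lower class, limma called 1 member, Cdc45. With no filter on low values limma also called Chaf1a over both days (adjusted p = 0.0345), and DESeq2 called Brca2 at day 270 (adjusted p = 0.0425) and between day 270 marked and day 60 unmarked cells (adjusted p = 0.0243).

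Other genes of the pathway were counted in the same fits. Of 60 listed, 58 were tested, and 46 at day 60 (79.3%, against 63.9% of all genes) and 50 at day 270 (86.2%, against 69.2%) were negative. Their medians were -0.30 and -0.47, where those of all genes were -0.13 and -0.22. Ccna2, the S-phase cyclin A2, was the only one of these called at day 60 (background 0.15% lower), and fell (-4.39 ± 0.81, adjusted p = 0.0246, 16.0 ± 1.71 against 0.477 ± 0.826 CPM). At day 270 limma, the only tool run on this list, called 0, with 18 lower and 1 higher at an unadjusted p under 0.05 (background 11.9% lower and 2.09% higher). Over both days 4 fell (background 1.5%): Ccna2 (-3.33 ± 0.57), Dtl, part of the ligase that destroys Cdt1 (-2.30 ± 0.52, adjusted p = 0.0257), Samhd1, which breaks down deoxynucleotides (-0.56 ± 0.13, adjusted p = 0.0315), and Skp2, an F-box protein that targets cell cycle inhibitors (-2.17 ± 0.52, adjusted p = 0.0375). Samhd1 acts against the deoxynucleotide supply to which Rrm2 adds, and was lower in the same direction. No gene of this list was called higher in these comparisons.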

How the data were processed

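RNA from sorted plasma cells was sequenced in 12 libraries of 4 groups of 3. Kits were RNeasy Micro and TruSeq RNA, per the labels' protocols. The build was GRCm38 and limma was used, per the submitters' processing notes. The aligner, counter and annotation were not given in the sources used here. A deposited count table gives whole read counts of 230 genes. Per the file headers, the authors' table of 14219 genes gives CPM per library beside the authors' log2 fold changes, p-values and FDR, and a second table of 265 genes gives the same. The CPM of the large table gave back whole reads: of 151331 values below 1000 reads, 151331 (100%) came out whole to within 0.05 of a read, and all 230 genes of the count table matched. The totals were 7449468 to 15943547 reads per library. Standard errors and p-values rest on the spread between the libraries of a group.

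The test was limma 3.58.1 (trended prior, R 4.3.3) on log2(CPM + 0.5) in all 12 libraries, 1 coefficient per group and no block (8 residual degrees of freedom). Genes were kept by filterByExpr (edgeR 4.0.16) with a minimum count of 10, run on the recovered reads, which left 12704 and removed 1515. Tests were two-sided, adjusted over all genes tested. On the recovered reads, edgeR's quasi-likelihood test called 1 member at day 60, 0 at day 270 and 3 over both days, and DESeq2 1.42.0 called 1, 3 and 5. The script was tested on simulated data. Exon lengths and gene positions are from GENCODE M21, and promoters from RefSeq.

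The members, the other gene lists and the motifs were chosen with earlier results of these data known. Values in every library are given for members called in any comparison, for the 3 most negative and the 3 most positive at day 60, at day 270 and over both days, and for Mcm2, Mcm5, Pcna, Rrm2, Cdc45, Cdc6, E2f1, E2f2, Ccne1, Ccne2, Uhrf1 and Dnmt1. The labels give specimens and not mice, so p-values measure the spread between these specimens. The marked and the unmarked library of a specimen share a number in the labels, which pairs them within a day. Correlations of residuals had a median of 0.0556 (range -0.0109 to 0.115) in the 6 pairs of 1 specimen, and of -0.0194 (range -0.104 to 0.0301) in the 12 pairs of different specimens. Alternatives were other scalings, tools, filters and pseudocounts, quality weights, the specimen as a block, the compared libraries alone, and libraries left out.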

Additional observations from a re-analysis of the deposited data

How the results depend on the processing

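No called member changed sign under any alternative run, and no member was called higher under any of them. The number of members called lower at day 60 was 1, and became 3 with quality weights, 2 with the compared libraries alone and 0 without replicate 1 of every group. Leaving out 1 library at a time gave 0 to 1, with 0 without any 1 of the unmarked day 60 libraries. At day 270 it was 1, and became 0 with edgeR, 3 with DESeq2, 0 with limma-voom, 0 with a mean of at least 5 CPM (which leaves out Cdc45), 2 with quality weights, 0 with the compared libraries alone, 0 without replicate 1 of every group and 0 without marked libraries 2 and 3 of that day. The last of these was chosen after seeing the data. Leaving out 1 library gave 0 to 5, with 0 without any 1 of the unmarked day 270 libraries and 5 without marked library 1 (Cdc45, Brca2, E2f2, Pcna and Pola2). Over both days it was 3, and became 5 with totals that leave out ribosomal RNA-like features and Jchain, 5 with DESeq2, 6 with quality weights and 0 without replicate 1 of every group. Smaller changes of this count, up or down, are not listed. Among them, a mean of at least 5 CPM leaves out Cdc45, and E2f2 was lost without marked libraries 2 and 3 of day 270. Leaving out 1 library gave 3 to 7, with 5 without marked library 3 of day 60, 5 without marked library 1 of day 270 and 7 without marked library 3 of day 270. For marked cells of day 270 against unmarked cells of day 60 it was 2, and became 1 with a mean of at least 5 CPM, 1 with the compared libraries alone, 1 without replicate 1 of every group and 1 without marked libraries 2 and 3 of day 270, and leaving out 1 library gave 1 to 5, with 1 without any 1 of the unmarked libraries of either day and 5 without marked library 1 of day 270. Between the days in marked cells it was 0, and 1 with DESeq2. Beyond the smaller filter and the fewer samples, the cause was not tested.

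The median log2 fold change of the members at day 60 moved from -0.54 to -0.33 without replicate 1 of every group, and that at day 270 from -0.51 to -0.35 with edgeR and -0.33 with DESeq2. That over both days moved from -0.53 to -0.41 with TMM scaling, -0.41 with edgeR and -0.40 with DESeq2. That between the days in unmarked cells moved from 0.19 to 0.07 with edgeR, 0.06 with DESeq2 and 0.04 without unmarked library 3 of day 60. Medians near 0 changed sign. That between the days in marked cells, 0.11, was -0.0095 with TMM scaling and -0.065 without marked library 3 of day 270. That of the difference of the marking effect between days, 0.02, was negative under several alternatives, TMM scaling (-0.0097), edgeR (-0.072) and DESeq2 (-0.034) among them, and was lowest without marked library 3 of day 270 (-0.19). Replicate 1 of every group has library numbers from 5 to 8, and the others have 13 to 27. With the specimen as a replicate block the counts were 1 at day 60, 1 at day 270, 3 over both days and 0 for the difference between days, and the paired fit changed no call. Its adjusted p was 0.0261 for Rrm2 at day 60 and 0.0398 for Cdc45 at day 270. In some library 15 members had no read, and the depth allows no value between 0 and 1 read, which is 0.134 CPM at most.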
